A study of Mus musculus with 8 samples.

Results

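The genes described here carry symbols that start with Nduf, the name given to subunits and assembly factors of respiratory complex I. The set follows the symbol, so it also holds Ndufa4, now assigned to complex IV, and its paralogue Ndufa4l2, both counted here among the subunits. They were found through the RefSeq accession that the array annotation gives for each probe, with pseudogenes left out. Of 49 such genes in the mouse gene table, 46 had at least 1 matched probe, among 20660 genes with a matched probe. Ndufb1, Ndufb4b and Ndufb4c had none. The 46 genes were 38 subunits and 8 assembly factors, whose symbols start with Ndufaf, and 54 probes measured them.

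Complex I takes electrons from NADH, passes them along iron-sulfur clusters in a peripheral arm that stands in the mitochondrial matrix, and reduces ubiquinone, while a membrane arm pumps protons. Core subunits carry out this chemistry, accessory subunits surround them, and assembly factors bind the growing modules but are absent from the finished enzyme. Skeletal muscle depends on the enzyme for sustained work, and slow and IIA fibres hold more mitochondria than the other fast fibres.

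Arrays compared gastrocnemius and tibialis anterior (TA) muscle of male C57BL6 mice with 1 functional copy of Eif6 (Eif6+/-) with the same muscle of wild-type (WT) littermates. The mice were 8 to 16 weeks old, and 4 of each genotype were paired at random within age. The labels do not say whether the same mice gave both muscles. Eif6 encodes a translation initiation factor that also acts in ribosome assembly. Each of 8 arrays held cRNA of 1 Eif6+/- mouse in the Cy5 channel and of 1 WT mouse in the Cy3 channel, with 4 arrays per muscle. Each value below is a log2 ratio of Eif6+/- over WT on 1 array, given in the order of arrays 1 to 4, or their mean with its standard error (SE, n = 4 arrays) from limma. A gene was called higher or lower where its limma p, adjusted over all probes kept in that muscle, was under 0.1. RNA came from whole muscle, so fewer cells of a type and less RNA per cell cannot be told apart. The dye and the genotype cannot be told apart either, since every Eif6+/- sample was labelled with Cy5 according to the sample labels. The study's methods name Cy3 only, and the labels were followed here.

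Eif6 itself, the targeted gene, had log2 ratios of -0.97, -1.15, -0.89 and -1.06 in gastrocnemius. In TA they were -1.22, -1.03, -0.95 and -0.80. The gene was lower in Eif6+/- muscle on all 8 arrays, as the labels say. Its means were -1.02 ± 0.08 in gastrocnemius (limma adjusted p 0.0239) and -0.999 ± 0.083 in TA (limma adjusted p 0.0108). The second probe of the gene had means of -1.13 and -1.12. The gastrocnemius call of Eif6 was lost without array 3 (limma adjusted p 0.121) or array 4 (limma adjusted p 0.156), with means of -1.06 and -1.004.

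All 46 Nduf genes were well above background in both channels on all 8 arrays, against 54% of the 20660 genes, so none of them was lost to the filter on dim probes. In gastrocnemius, limma called 17 of the 46 higher in Eif6+/- muscle, beside 9.87% of all 12602 genes tested. It called 0 lower, beside 5.54% of all genes, with 2 of the 46 below 0. At an unadjusted p under 0.05 in either direction there were 25 of the 46, beside 3654 of all 12602 genes. The median log2 ratio over the Nduf genes was 0.25, against 0.02 over all genes, and 44 of the 46 means were above 0, against 53.9% of all genes. On the single arrays the Nduf median was 0.28, 0.16, 0.43 and 0.13. Arrays 1 and 3 had the higher medians, with 42 and 44 genes above 0, and arrays 2 and 4 the lower ones, with 29 and 31. Without array 3, and likewise without array 4, limma called 0 of the 46 higher and also 0 of all genes higher or lower. The 17 genes then had limma adjusted p of 0.131 to 0.276 without array 3 and of 0.156 to 0.287 without array 4, and their means were all still above 0.

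In TA, limma called 1 of the 46 higher, Ndufc1, beside 8.99% of 12376 genes tested, and 7 lower, beside 7.29%. At an unadjusted limma p under 0.05 in either direction there were 12 of the 46, beside 3599 of all 12376 genes. The Nduf median was -0.01, against 0.02 over all genes, and 22 of the 46 means were above 0, against 54% of all genes. Array medians were 0.08, 0.08, -0.04 and -0.12. Arrays 1 and 2 were above 0 and arrays 3 and 4 below it, and array 4 had 38 of the 46 genes below 0. Leaving out array 1 took the lower calls from 7 to 0, array 2 to 2 and array 3 to 3, and without array 4 they were 7. The higher calls were 0 without array 1 or array 2, 1 without array 3 and 3 without array 4. Over all genes the same 4 steps gave 53, 338, 735 and 1095 higher calls, and 15, 195, 450 and 925 lower calls. The sign of the median of the subunits, -0.01, turned to 0.01 in the log2 ratios the authors deposited, and to 0.04 without array 4.

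**Figure D1:**
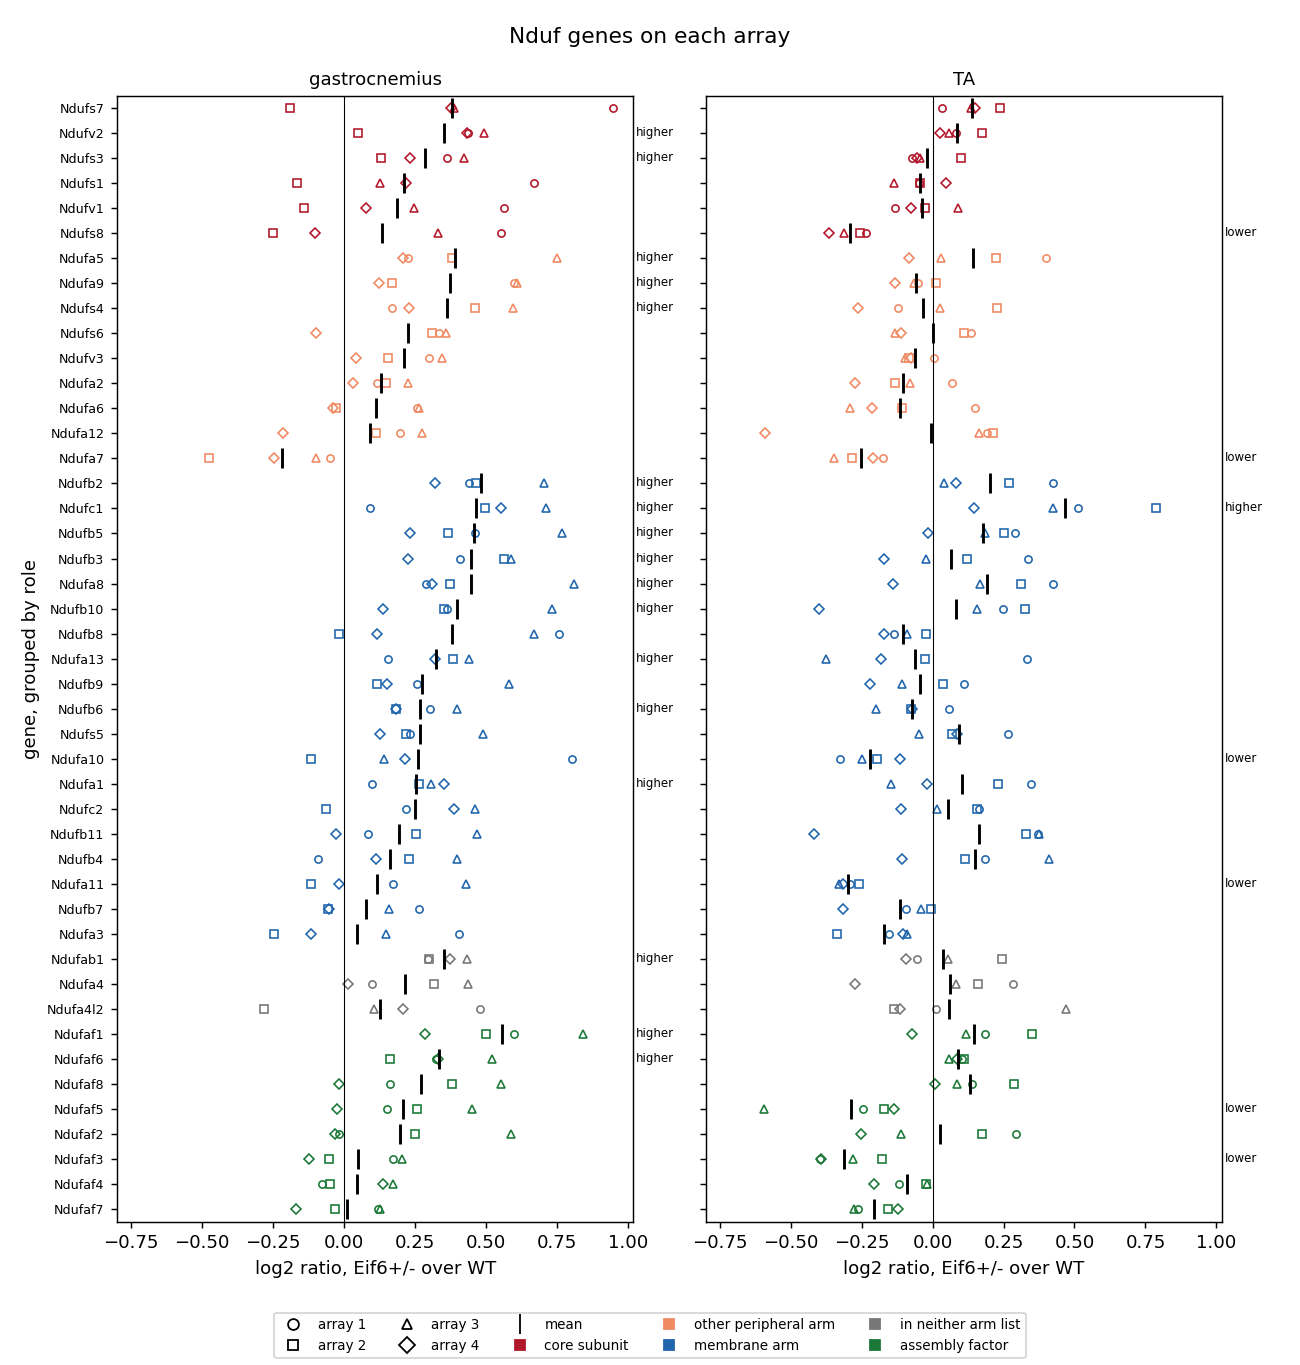
Log2 ratio (Eif6+/- over WT) of 45 of the 46 Nduf genes on each array, grouped by role, in gastrocnemius (left) and TA (right); symbols mark the 4 arrays, bars the means, and words at the right the limma calls. In gastrocnemius 44 means lie above 0, and in TA 22 do.

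The difference between the muscles was tested directly, since a call in one muscle and not in the other shows no difference. No Nduf gene passed limma's test of gastrocnemius minus TA: 0 of 46 were called higher and 0 lower, beside 0% of 12195 genes in either direction. At an unadjusted p under 0.05 there were 20 of the 46, all with the higher ratio in gastrocnemius, and 996 of all genes, 574 of them higher in gastrocnemius. The gastrocnemius mean exceeded the TA mean for 45 of the 46 genes, with a median difference of 0.25, against 0.01 over all genes. Ndufc1 was the exception, with means of 0.46 and 0.47. Its difference of -0.004 ± 0.161 has no settled direction, since it ranged from -0.11 to 0.43 over the other settings and the arrays left out. The difference of Ndufa7, 0.04 ± 0.11, likewise turned below 0 without gastrocnemius array 1 (-0.02) or array 3 (-0.004). Of the 45 genes, 40 had differences above 0 whichever array was left out. The other 5 were Ndufa7, Ndufa12, Ndufa4l2, Ndufb11 and Ndufb4, whose lowest values were -0.02 and -0.05 without gastrocnemius array 1 for Ndufa7 and Ndufa4l2, and -0.10, -0.17 and -0.07 without TA array 4 for Ndufa12, Ndufb11 and Ndufb4. The muscles lay in different rows of 1 slide, so muscle and slide row cannot be told apart.

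**Figure D2:**
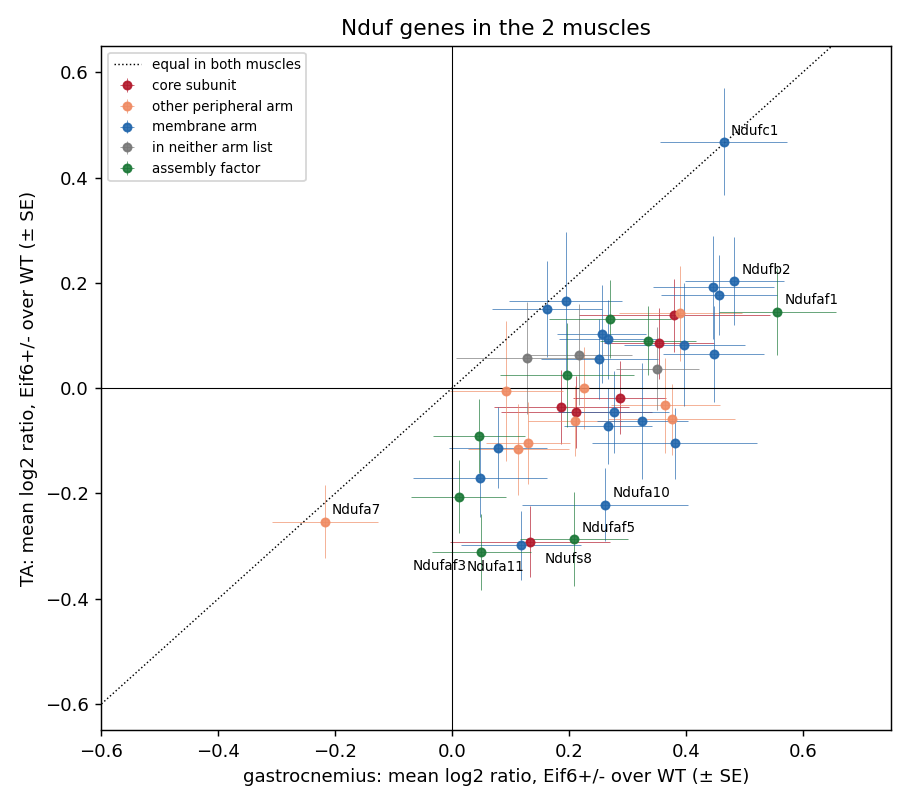
Mean log2 ratio (Eif6+/- over WT) of 45 of the 46 Nduf genes in gastrocnemius (x axis) and TA (y axis), with SE from limma (n = 4 arrays each) and colours for role. All points but that of Ndufc1 lie below the dotted line of equal ratios.

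Of the 7 core subunits on the array, limma called 2 higher in gastrocnemius. The median over the core subunits was 0.21 in gastrocnemius and -0.04 in TA. Ndufv2, an iron-sulfur subunit of the module that takes electrons from NADH, had gastrocnemius log2 ratios of 0.44, 0.05, 0.49 and 0.43. Array 2 was low and the others were close to each other, for a mean of 0.35 ± 0.09 (limma adjusted p 0.0702). Ndufs3, which joins that module to the ubiquinone-binding module, gave 0.36, 0.13, 0.42 and 0.23, all above 0, with a mean of 0.29 ± 0.08 (limma adjusted p 0.0782). Both calls were lost without array 1 (limma adjusted p 0.132 for Ndufv2 and 0.153 for Ndufs3), array 3 (0.236 and 0.253) or array 4 (0.234 and 0.212). In TA the means of Ndufv2 and Ndufs3 were 0.09 and -0.02.

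Ndufs8, which holds the iron-sulfur clusters nearest to the ubiquinone site together with Ndufs7, gave -0.23, -0.26, -0.31 and -0.37 in TA. These values were narrowly spread, with a mean of -0.29 ± 0.07 (limma adjusted p 0.0441), and the call was lost without array 1 (0.176), array 2 (0.118) or array 3 (0.104).

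The core subunits differed between gastrocnemius arrays more than the other groups. Their median was 0.55, -0.17, 0.33 and 0.22, with all 7 genes above 0 on array 1 and 2 of 7 on array 2. Ndufs7 gave 0.95, -0.19, 0.39 and 0.38 (mean 0.38 ± 0.16, limma adjusted p 0.192), and Ndufs1, the largest iron-sulfur protein of the peripheral arm, gave 0.67, -0.17, 0.13 and 0.22 (mean 0.21 ± 0.13). Ndufv1, which binds NADH and the flavin, gave 0.56, -0.14, 0.25 and 0.08. For each of these genes array 1 was the highest and array 2 the lowest, and none was called. Their TA means were 0.14, -0.05 and -0.04.

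Among all 16 peripheral-arm subunits, core ones included, 5 were called higher in gastrocnemius. Ndufs4, an accessory subunit that steadies the NADH-oxidising module, had gastrocnemius log2 ratios of 0.17, 0.46, 0.60 and 0.23 and TA log2 ratios of -0.12, 0.23, 0.03 and -0.26. All were above 0 in gastrocnemius, and TA arrays fell on both sides of 0. The gastrocnemius mean was 0.36 ± 0.09 (limma adjusted p 0.0655), and the call was lost without array 2 (0.135), array 3 (0.217) or array 4 (0.176). 

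Ndufa9, which sits beside the ubiquinone pocket, had gastrocnemius log2 ratios of 0.60, 0.17, 0.61 and 0.12. Arrays 1 and 3 were high and arrays 2 and 4 low. The mean was 0.38 ± 0.11 (limma adjusted p 0.0857), lost without array 1 (0.170), array 3 (0.276) or array 4 (0.171). Ndufa5, another accessory subunit, gave 0.22, 0.38, 0.75 and 0.21, with array 3 far above the others. The mean was 0.39 ± 0.10 (limma adjusted p 0.0722), lost without array 2 (limma adjusted p 0.1296), array 3 (0.205) or array 4 (0.175). The second probe of Ndufa5 had means of 0.07 in gastrocnemius and -0.34 in TA, against 0.39 and 0.14 for the probe used.

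Ndufa7, an accessory subunit of the peripheral arm, had means below 0 in both muscles and was called lower in TA. Its log2 ratios were -0.05, -0.48, -0.10 and -0.25 in gastrocnemius and -0.17, -0.28, -0.35 and -0.21 in TA. It was the only Nduf gene with all 8 arrays below 0. In TA the mean was -0.25 ± 0.07 (limma adjusted p 0.0637), a call lost without array 1 (0.192), array 2 (0.175) or array 3 (0.164). In gastrocnemius the mean of -0.22 ± 0.09, the lowest of the 46, was not called (limma adjusted p 0.184).

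The membrane arm had the largest share of calls in gastrocnemius among the groups of subunits with more than 3 members, with 9 of 19 called higher and all 19 means above 0. Its median was 0.27 in gastrocnemius and 0.06 in TA, where 1 of 19 was called higher and 2 lower. Ndufb2, an accessory subunit of this arm, had gastrocnemius log2 ratios of 0.44, 0.46, 0.71 and 0.32. All were far above 0, with array 3 the highest, and the mean was 0.48 ± 0.08 (limma adjusted p 0.0356). In TA it gave 0.42, 0.27, 0.04 and 0.08, all above 0 but not called (mean 0.20, limma adjusted p 0.160).

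Ndufb3, an accessory subunit of the membrane arm, had gastrocnemius log2 ratios of 0.41, 0.57, 0.59 and 0.23, and Ndufb5, another, 0.46, 0.37, 0.77 and 0.23. Array 4 was the lowest for both and array 3 the highest. Their means were 0.45 ± 0.09 (limma adjusted p 0.0399) and 0.46 ± 0.10 (limma adjusted p 0.0493). Ndufb10, from the far end of the arm, gave 0.36, 0.35, 0.73 and 0.14, and Ndufb6, another accessory subunit, gave 0.30, 0.18, 0.40 and 0.18. Array 3 was again the highest, and the means were 0.40 ± 0.10 (limma adjusted p 0.0688) and 0.27 ± 0.08 (limma adjusted p 0.0801).

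Ndufa8, which faces the intermembrane space, gave 0.29, 0.38, 0.81 and 0.31 in gastrocnemius, and 0.42, 0.31, 0.17 and -0.14 in TA. Array 3 was far above the others in gastrocnemius, where the mean was 0.45 ± 0.10 (limma adjusted p 0.0543), and the TA mean of 0.19 was not called. Ndufa13 and Ndufa1, accessory subunits of the membrane arm, gave 0.16, 0.38, 0.44 and 0.32, and 0.10, 0.26, 0.31 and 0.35. Array 1 was the lowest for both. Their means were 0.33 ± 0.08 (limma adjusted p 0.0583) and 0.26 ± 0.08 (limma adjusted p 0.0908). Without array 3 or array 4 none of the calls of membrane-arm genes held, and Ndufb2, for example, then had a limma adjusted p of 0.131 and 0.156. Leaving out array 1 also lost Ndufb10 (0.103) and Ndufb6 (0.149), and leaving out array 2 lost Ndufb10 (0.115), Ndufb6 (0.115), Ndufa13 (0.118) and Ndufa1 (0.164).

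Ndufc1, a small accessory subunit of the membrane arm, was the 1 Nduf gene called in both muscles. It had log2 ratios of 0.09, 0.50, 0.71 and 0.56 in gastrocnemius and 0.51, 0.79, 0.43 and 0.15 in TA. All 8 arrays were above 0, with array 1 low in gastrocnemius and array 4 low in TA. The means were 0.46 ± 0.11 (limma adjusted p 0.0547) and 0.47 ± 0.10 (limma adjusted p 0.0390). Its gastrocnemius call was lost without array 2 (limma adjusted p 0.1055), array 3 (0.195) or array 4 (0.197), and its TA call without array 1 (0.190) or array 2 (0.116). With Agilent's own processed signals the TA mean was 0.09 and not called.

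Ndufa11, an accessory subunit of the membrane arm at its contact with complex III, gave -0.29, -0.26, -0.33 and -0.32 in TA. These 4 arrays were almost equal, with a mean of -0.30 ± 0.07 (limma adjusted p 0.0397), and the call was lost without array 1 (0.178) or array 2 (0.111). In gastrocnemius its values of 0.17, -0.12, 0.43 and -0.02 lay on both sides of 0. Ndufa10, an accessory subunit on the matrix side of this arm, gave -0.33, -0.19, -0.25 and -0.11 in TA, with array 4 nearest to 0. Its mean was -0.22 ± 0.07 (limma adjusted p 0.0909), lost without array 1 (0.304), array 2 (0.193) or array 3 (0.195). Its gastrocnemius ratios were 0.81, -0.12, 0.14 and 0.22, with array 1 far above the others.

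The lists of the 2 arms used here left out Ndufab1, Ndufa4 and Ndufa4l2. Ndufab1, the mitochondrial acyl carrier protein and a subunit found in both arms, had gastrocnemius log2 ratios of 0.29, 0.30, 0.43 and 0.37, close together and all above 0, and a TA mean of 0.04. Its gastrocnemius mean was 0.35 ± 0.07 (limma adjusted p 0.0426), a call lost without array 3 (0.157) or array 4 (0.172). Ndufa4 and Ndufa4l2 were not called in either muscle, with gastrocnemius means of 0.22 and 0.13.

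Assembly factors had a gastrocnemius median of 0.20, against 0.26 for the subunits, and a TA median of -0.03, against -0.01. Without gastrocnemius array 3 the median of the factors was 0.10, and without TA array 4 it turned to 0.02. In gastrocnemius 2 of the 8 factors were called higher and 15 of the 38 subunits, and in TA 2 of 8 and 5 of 38 were called lower. Array medians of the factors were 0.16, 0.21, 0.49 and -0.02 in gastrocnemius, and those of the subunits 0.30, 0.15, 0.43 and 0.14. Array 3 was the highest for both groups. On arrays 1 and 4 the factors lay below the subunits, and on arrays 2 and 3 above them. The 2 medians differed by less than the spread of either group between arrays, whose SD was 0.21 for the factors and 0.13 for the subunits. Without array 3 or array 4 limma called 0 of either group.

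Ndufaf1, a chaperone of the membrane arm, had gastrocnemius log2 ratios of 0.60, 0.50, 0.84 and 0.29. All were above 0, and the mean of 0.56 ± 0.10 was the highest of the 46 genes (limma adjusted p 0.0356). Its TA ratios were 0.19, 0.35, 0.12 and -0.07, and their mean of 0.15 was not called. Ndufaf6, which acts early on the ubiquinone-binding module, gave 0.32, 0.16, 0.52 and 0.33 in gastrocnemius. Array 2 was the lowest, and the mean was 0.33 ± 0.08 (limma adjusted p 0.0617). Neither gene kept its call without array 3 (limma adjusted p 0.131 and 0.204) or array 4 (0.156 and 0.198).

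Ndufaf3, which helps to build the ubiquinone-binding module with Ndufaf4, gave -0.40, -0.18, -0.28 and -0.40 in TA. All 4 were below 0, with a mean of -0.31 ± 0.07 (limma adjusted p 0.0444), a call lost without array 1 (0.199). Ndufaf5, which hydroxylates an arginine of Ndufs7, gave -0.24, -0.17, -0.60 and -0.14 in TA. Array 3 was far below the others, and the mean was -0.29 ± 0.09 (limma adjusted p 0.0891), lost without array 1 (0.256), array 2 (0.156) or array 3 (0.230). The second, dimmer probe of Ndufaf5 had a TA mean of 0.23, so the probes of this gene had opposite signs. Gastrocnemius means were 0.05 for Ndufaf3 and 0.21 for Ndufaf5.

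The other factors passed in neither muscle. Ndufaf7, a methyltransferase of the matrix, gave -0.26, -0.16, -0.28 and -0.12 in TA, all below 0, with a mean of -0.21 ± 0.07 (limma adjusted p 0.102), and a gastrocnemius mean of 0.01. Ndufaf8, a partner of Ndufaf5, gave 0.16, 0.38, 0.55 and -0.02 in gastrocnemius, and Ndufaf2, which acts late in assembly, gave -0.02, 0.25, 0.59 and -0.03. Array 3 was the highest and array 4 the lowest for both, with means of 0.27 and 0.20, beside 0.13 and 0.03 in TA. Ndufaf4, the partner of Ndufaf3, had -0.08, -0.05, 0.17 and 0.14 in gastrocnemius, on both sides of 0, and a TA mean of -0.09.

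Of the complex I assembly factors without the Nduf name, 11 had a probe. Limma called 4 of the 11 higher in gastrocnemius, beside 9.87% of all genes, and 1 lower in TA, beside 7.29%. Ecsit and Tmem126b, which work with Ndufaf1, had gastrocnemius means of 0.49 and 0.36 (limma adjusted p 0.0349 and 0.0472). Nubpl, which delivers iron-sulfur clusters, had 0.38, and Dmac2, a factor of the distal membrane arm, had 0.36. Foxred1 was the factor called lower in TA, at -0.32 (limma adjusted p 0.0395). These 5 genes are named because limma called them. The median over all 11 was 0.09 in gastrocnemius and 0.005 in TA. In gastrocnemius 2 of the 11 means were below 0, those of Timmdc1 (-0.21) and Tmem186 (-0.03).

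**Figure D3:**
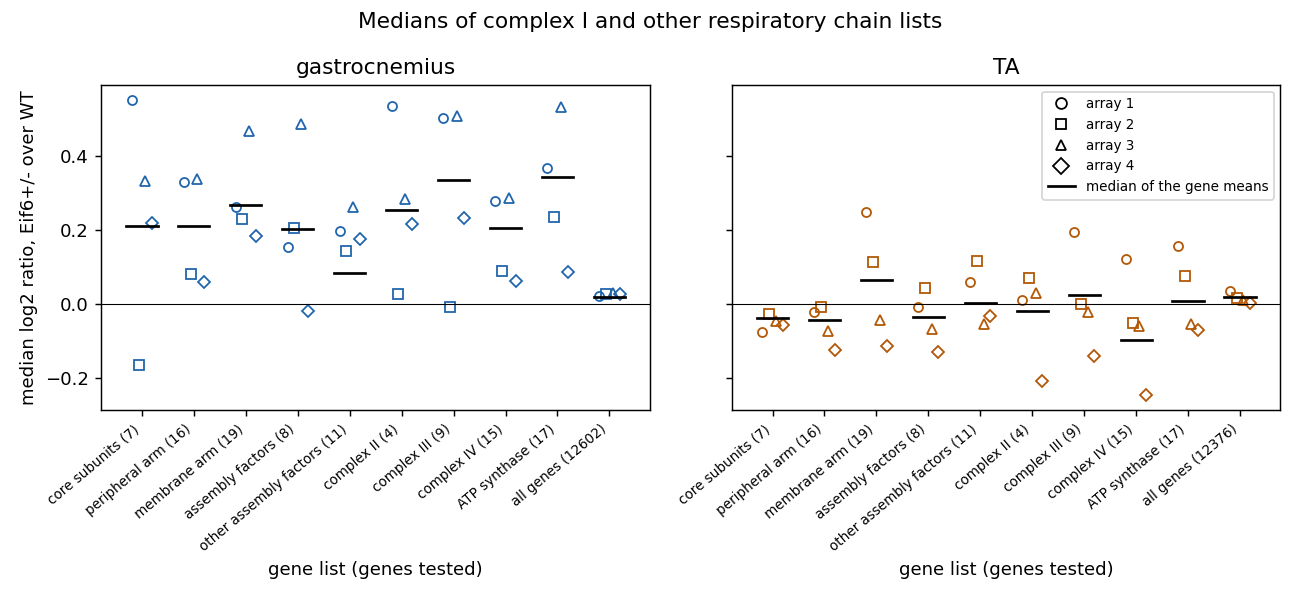
Median log2 ratio (Eif6+/- over WT) of complex I groups, other respiratory chain lists and all genes on each array (symbols), with the median of the gene means (bars), in gastrocnemius (left) and TA (right); the number of genes tested is in brackets. In gastrocnemius the bars of the complex I groups lie between 0.09 and 0.27, and that of all genes at 0.02.

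The other respiratory chain complexes gave the setting for these counts. In gastrocnemius limma called 2 of 4 genes of complex II higher, 4 of 9 of complex III, 5 of 15 of complex IV and 9 of 17 of ATP synthase, and 0 lower in each list. Medians were 0.26, 0.34, 0.21 and 0.34, beside 0.26 for the Nduf subunits. In TA the medians were -0.02, 0.02, -0.10 and 0.01, beside -0.01 for the Nduf subunits. There limma called lower 1 of 4 genes of complex II, 2 of 9 of complex III, 2 of 15 of complex IV and 1 of 17 of ATP synthase, and 1 of ATP synthase higher. Over all genes limma called 9.87% higher and 5.54% lower in gastrocnemius, and 8.99% higher and 7.29% lower in TA. No probe of the mitochondrially encoded complex I subunits was found.

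Of the 46 genes, 8 had more than 1 probe, and the brightest was used. The second probe of Ndufv3, a small subunit of the NADH-oxidising module, had means of 0.03 in gastrocnemius and -0.38 in TA (limma adjusted p 0.0460), against 0.21 and -0.06 for the probe used. Second probes of Ndufa5 (limma adjusted p 0.0769), Ndufaf4 (mean -0.26, limma adjusted p 0.0630) and Ndufb11 (limma adjusted p 0.0782) also passed as lower in TA, where the probes used did not. The second probe of Ndufb11, an accessory subunit of the membrane arm, had -0.22 and -0.24, against 0.19 and 0.16, so its direction depends on the probe in both muscles. The second probe of Ndufb6 had a gastrocnemius mean of 0.53 (limma adjusted p 0.0373), against 0.27 for the probe used. That of Ndufb5 had 0.35 in gastrocnemius (limma adjusted p 0.0538) and -0.05 in TA, against 0.46 and 0.18. That of Ndufb4 had 0.26 and 0.23, against 0.16 and 0.15, and was not called.

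The promoters of the genes were also read. The RefSeq promoter table (GRCm38.p6) held 42 promoters of 40 of the 46 genes, each of 300 bases around the start. Both strands were searched for the letters GCGCATGC (NRF1), CCGGAAGT (ETS factors), TCAAGGTCA (ERRA) and AAGATGGC (YY1), and a match is only a description. NRF1 letters were in 5 of the 42 promoters (11.9%), against 2.71% of all 32851 promoters, and YY1 letters in 8 (19%), against 2.75%. ETS letters were in 1 (2.38%), against 3.89%, and ERRA letters in 0, against 0.423%. The 5 promoters with NRF1 letters were those of Ndufa11, Ndufa6, Ndufa8, Ndufaf4 and Ndufaf5. Of these, Ndufa8 was called higher in gastrocnemius, and Ndufa11 and Ndufaf5 lower in TA. YY1 letters were found for Ndufa3, Ndufa9, Ndufaf8, Ndufb8, Ndufc1, Ndufs4, Ndufs6 and Ndufs7.

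Shown here are the promoters of Ndufc1, called in both muscles, and of the subunit and factor lowest in adjusted p in gastrocnemius (Ndufb2, Ndufaf1). Those of the subunit and factor lowest in adjusted p among genes lower in TA with an entry (Ndufa11, Ndufaf3) are also shown. Their positions are chr6:39592315-39592614, plus strand for Ndufb2, chr2:119662785-119663084, minus strand for Ndufaf1, chr17:56717512-56717811, plus strand for Ndufa11, chr9:108567387-108567686, minus strand for Ndufaf3 and chr3:51408906-51409205, minus strand for Ndufc1. Capitals mark the letters found. In Ndufa11 the NRF1 letters overlap on both strands, at bases 191 to 198 and 193 to 200, and in Ndufc1 the YY1 letters lie at bases 273 to 280, past the start. Ndufb2, Ndufaf1 and Ndufaf3 hold none of the 4 motifs in this window.
Ndufb2: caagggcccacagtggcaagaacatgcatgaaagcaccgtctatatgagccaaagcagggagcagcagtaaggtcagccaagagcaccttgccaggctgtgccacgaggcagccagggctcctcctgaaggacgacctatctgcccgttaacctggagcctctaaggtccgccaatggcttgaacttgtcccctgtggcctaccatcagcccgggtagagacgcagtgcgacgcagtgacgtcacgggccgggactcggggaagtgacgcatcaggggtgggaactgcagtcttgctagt
Ndufaf1: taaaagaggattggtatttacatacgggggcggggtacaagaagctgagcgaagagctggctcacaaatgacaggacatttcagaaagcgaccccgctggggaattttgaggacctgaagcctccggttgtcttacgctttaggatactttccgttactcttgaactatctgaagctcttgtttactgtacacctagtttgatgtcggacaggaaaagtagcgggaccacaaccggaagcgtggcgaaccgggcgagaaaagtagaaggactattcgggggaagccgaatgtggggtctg
Ndufa11: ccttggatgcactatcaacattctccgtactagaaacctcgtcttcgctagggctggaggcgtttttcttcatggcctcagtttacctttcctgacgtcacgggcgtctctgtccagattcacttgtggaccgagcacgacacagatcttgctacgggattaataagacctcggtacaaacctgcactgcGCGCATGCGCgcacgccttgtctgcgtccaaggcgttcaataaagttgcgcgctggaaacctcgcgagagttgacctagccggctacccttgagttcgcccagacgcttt
Ndufaf3: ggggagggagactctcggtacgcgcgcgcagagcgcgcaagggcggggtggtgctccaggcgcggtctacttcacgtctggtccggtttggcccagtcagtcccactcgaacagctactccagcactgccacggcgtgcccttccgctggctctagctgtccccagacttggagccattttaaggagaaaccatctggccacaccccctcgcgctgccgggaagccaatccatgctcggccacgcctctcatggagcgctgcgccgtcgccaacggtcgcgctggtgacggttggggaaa
Ndufc1: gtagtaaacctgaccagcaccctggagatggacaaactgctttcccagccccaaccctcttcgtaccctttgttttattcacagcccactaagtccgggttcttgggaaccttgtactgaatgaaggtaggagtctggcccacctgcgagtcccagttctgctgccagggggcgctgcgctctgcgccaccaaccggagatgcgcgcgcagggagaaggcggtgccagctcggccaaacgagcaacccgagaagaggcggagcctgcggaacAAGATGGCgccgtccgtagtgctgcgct

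The WT channel shows how the muscles differ without the Eif6 change. These signals also enter the log2 ratios above as their denominator, so the comparisons are not independent. Limma called 39 of the 46 Nduf genes lower in WT gastrocnemius than in WT TA, beside 13.2% of 12195 genes, and 0 higher, beside 7.9%. At an unadjusted p under 0.05, 40 were lower and 0 higher, beside 3782 of all genes in either direction, 1471 of them higher. All 46 differences were below 0, with a median of -0.42, against -0.03 over all genes. That median was -0.61 with loess alone and -0.62 with Agilent's processed signals. Leaving out gastrocnemius array 3 gave 23 lower calls, and leaving out TA array 2 or TA array 4 gave 24 each, while the other arrays gave 28 to 38. In the Eif6+/- channel, 11 of the 46 were called lower in gastrocnemius than in TA, beside 10.2% of all genes, with a median of -0.17.

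Ndufa8 had a mean WT log2 signal of 12.76 in gastrocnemius and 13.64 in TA. Their difference of -0.88 ± 0.12 (limma adjusted p 0.00399) was the largest of the 46. Ndufaf1 differed by -0.77 ± 0.12 (limma adjusted p 0.00673), Ndufs4 by -0.62 ± 0.08 (limma adjusted p 0.00369) and Ndufs8 by -0.67 ± 0.15 (limma adjusted p 0.0213). Ndufa7 had the smallest difference, -0.07 ± 0.09, and was not called. In the Eif6+/- channel the differences of Ndufa8, Ndufaf1 and Ndufs4 were -0.62, -0.36 and -0.23.

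Each gene's log2 signal was then set against its own mean over all 16 channels, and the median over the Nduf genes was taken in each sample. WT gastrocnemius samples gave -0.31, -0.24, -0.40 and -0.13, and WT TA samples gave 0.12, 0.15, 0.08 and 0.29. Eif6+/- gastrocnemius samples gave 0.00, -0.13, 0.00 and 0.00, and Eif6+/- TA samples gave 0.16, 0.19, 0.02 and 0.16. WT gastrocnemius was below WT TA in every sample, and Eif6+/- gastrocnemius lay between them except on array 2, which fell just below the highest WT gastrocnemius sample. The medians over all genes stayed within 0.05 of 0 in all 16 samples.

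**Figure D4:**
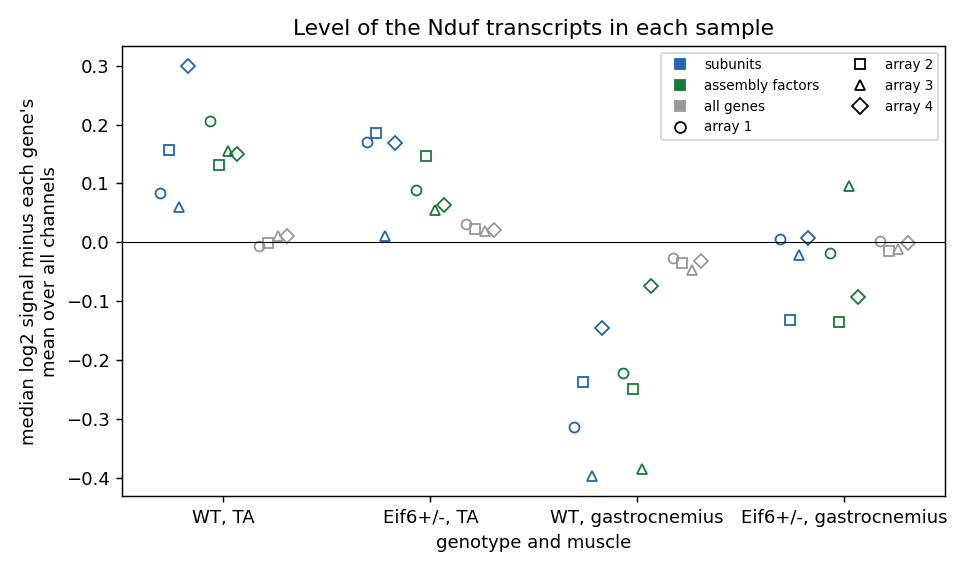
Median log2 signal, relative to each gene's mean over all 16 channels, of the Nduf subunits, the assembly factors and all genes in each sample, by genotype and muscle; symbols mark the array. WT gastrocnemius samples are the lowest group for the subunits and WT TA samples are all above 0.

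Fibre and cell type markers also moved between the arrays. The summed signal of 8 slow-fibre genes, of which Myl3 was the most abundant, had log2 ratios of 3.21, -1.06, 0.21 and -0.17 in gastrocnemius and -0.02, -0.52, -0.06 and -1.44 in TA. Gastrocnemius array 1 was far above the others. The IIA-fibre gene Myh2 gave 3.92, 0.52, 1.41 and 0.62 in gastrocnemius and 1.44, -0.04, 0.34 and -1.55 in TA. All gastrocnemius arrays were above 0, and arrays 1 and 3, where Myh2 was highest, were also those with the highest Nduf medians. TA array 4 was the lowest both for Myh2 and for the Nduf genes. The order of the arrays was not the same throughout. In gastrocnemius Myh2 was highest on array 1 and the Nduf median on array 3 (0.28 and 0.43 on arrays 1 and 3). In TA the Nduf median was 0.08 on both array 1 and array 2, where Myh2 gave 1.44 and -0.04. Limma called 0 of the 8 slow-fibre genes in gastrocnemius, with 0 at an unadjusted p under 0.05, and 4 of the 8 lower in TA, and Myh2 in neither muscle.

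Fast-fibre genes, 8 with Pvalb the most abundant, summed to log2 ratios of -0.07, 0.17, 0.29 and 0.03 in gastrocnemius and 0.35, 0.01, 0.03 and 0.21 in TA. These sums moved less than those of the other fibre lists, but single genes moved in both directions. In gastrocnemius Myh1 was called higher (0.96, limma adjusted p 0.0520) and Atp2a1 lower (-0.72, limma adjusted p 0.0746). In TA 2 of the 8 were called higher, Myh4 (0.80) and Tnnc2 (0.57), and 2 lower, Atp2a1 (-0.60) and Mylpf (-0.34).

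Connective tissue genes, 5 in all with Col1a2 the most abundant, summed to log2 ratios of 0.03, 0.04, -1.36 and 0.33 in gastrocnemius and 0.24, -0.84, 2.15 and -0.19 in TA. Array 3 stood apart in both muscles, in opposite directions. Macrophage genes, 4 with Csf1r the most abundant, gave -0.97, -0.04, -1.43 and -0.20 in gastrocnemius, lowest on arrays 1 and 3, and 1 of the 4 was called lower. Fat cell genes, 5 with Fabp4 the most abundant, gave -0.50, -0.13, -0.42 and -1.41 there, with 2 of the 4 tested called lower, and 1 of 4 called higher in TA. Red blood cell genes, 5 with Hba-a2 the most abundant, were called lower in TA for 4 of 5. Also called lower in TA were 1 of 3 endothelium genes (Kdr the most abundant, sums of -0.24, 0.03, 0.00 and -0.04) and the 1 neutrophil gene of 3 that was tested, S100a9 (-1.61). The endothelium sums were near 0 but for array 1. In the WT channel 6 of the 8 slow-fibre genes were called higher in gastrocnemius than in TA, with a median difference of 2.11, opposite to the Nduf genes. Also higher there were 3 of 4 fat cell genes (median 2.27), 4 of 5 connective tissue genes (median 1.06) and 1 of 4 macrophage genes (median 0.80). The part of fibre type and cell type in the Nduf results was not tested.

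**Figure D5:**
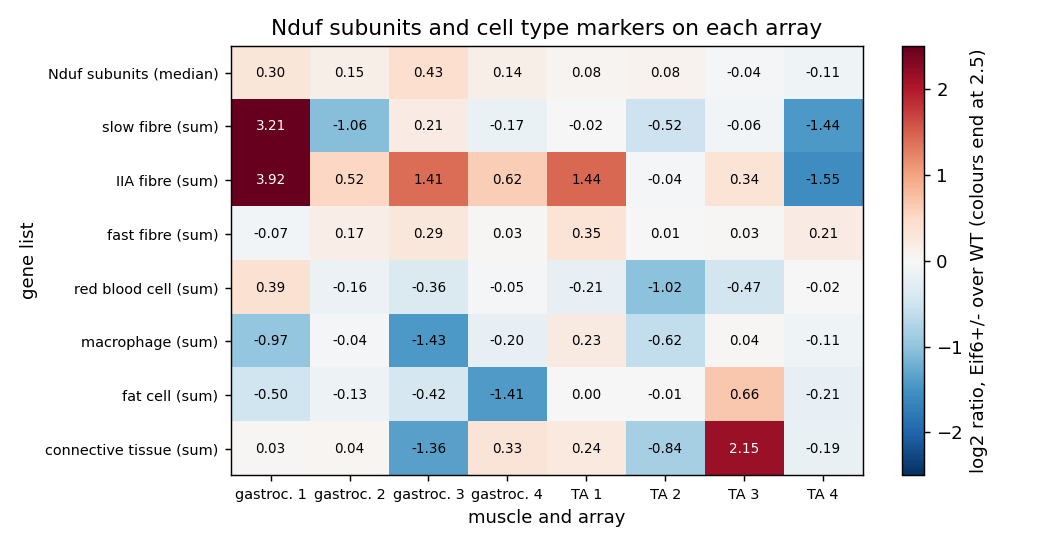
Log2 ratio (Eif6+/- over WT) on each array of the Nduf subunits (median over 38 genes) and of the summed signal of marker lists. Gastrocnemius array 1 has the highest slow-fibre and IIA-fibre values, 3.21 and 3.92.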

How the data were processed

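Each of 8 Agilent 2-colour arrays carried 1 Eif6+/- and 1 WT sample, 4 arrays per muscle. The deposited array files hold spot intensity values per channel, with median local background. The authors also deposited a log2 ratio of Cy5 over Cy3 per probe, normalized within arrays, which had a correlation of 0.999963 to 0.999996 per array with loess ratios of uncorrected intensities computed here.

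Median intensities were background-corrected with normexp (offset 50), normalized by loess within arrays and by quantiles across 16 channels. A probe was kept in a muscle if, on each of its 4 arrays, either channel passed Agilent's test for signal well above background, 23791 in gastrocnemius and 23384 in TA, with 22758 kept in both. On each array the signal of 43.6 to 48.6% of probes in Cy5 and 38.8 to 46% in Cy3 passed that test, and only 4 arrays per muscle limit the precision. RefSeq accessions matched 27235 of 55681 probes to genes, and a gene was represented by its probe of highest mean signal. Each muscle was tested with limma's lmFit and eBayes against 0, two-sided, with Benjamini-Hochberg adjustment over all kept probes and a threshold of 0.1. Muscles were compared by a limma contrast over all 8 arrays, on the log2 ratios and on each channel's signals.

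Named with values are Eif6, every Nduf gene called in either muscle, the core subunits, Ndufs4, Ndufa11, every Ndufaf gene, and the 3 highest and 3 lowest means per muscle, though not every gene under this rule is given here. The members and lists were chosen with earlier results of these data known. The code was tested on simulated data. Software was R 4.3.3, limma 3.58.1, Python 3.11.15 and matplotlib 3.10.9. Alternatives tried were other normalizations, background corrections, filters, probe summaries, tests and thresholds, leaving out each array, and the pair number as a block.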

Additional observations from a re-analysis of the deposited data

Results flagged for a closer look

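Among the 68 sets of 4 arrays examined (32 named genes and the medians of subunits and assembly factors, in each muscle), 3 had an array that stood apart from the other arrays of its muscle, a gap that chance gives in about 1 of 20 sets. Ndufa8 in gastrocnemius was 0.811 on array 3, while the other arrays gave 0.288 to 0.375. Ndufv2 in gastrocnemius was 0.0509 on array 2, while the other arrays gave 0.433 to 0.492. Ndufs3 in TA was 0.101 on array 2, while the other arrays gave -0.0744 to -0.0451. These are log2 ratios of Eif6+/- over WT, and no cause was tested.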

How the results depend on the processing

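Counts of calls depended on the test and its threshold more than the log2 ratios did. All 17 Nduf genes called in gastrocnemius and all 8 called in TA kept their sign under each of 10 other settings of the signals, filter, probe summary or fit, and without each array. Under all 10 settings the call itself was kept for 4 of the 17 (Ndufab1, Ndufaf1, Ndufb2 and Ndufc1) and for 2 of the 8. The medians of the subunits and of the assembly factors moved by less than their spread between arrays under every alternative tried. The causes of the changes below were not tested.

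With Agilent's processed signals, 4 Nduf genes were called higher in gastrocnemius (17 in the report), 0 higher in TA (1 in the report) and 3 lower in TA (7 in the report). All genes called were then 809 higher and 394 lower in gastrocnemius (1244 and 698 in the report), 511 higher and 332 lower in TA (1112 and 902 in the report), and 1 between the muscles. With a normexp offset of 0, 7 Nduf genes were higher in gastrocnemius and 3 lower in TA, and over all genes 932 were higher and 516 lower in gastrocnemius, and 681 higher and 529 lower in TA. At an adjusted p under 0.05, 5 Nduf genes were higher in gastrocnemius, 4 lower in TA and 23 lower in WT gastrocnemius than WT TA (39 in the report). All genes called were then 433 higher and 193 lower in gastrocnemius, 500 higher and 337 lower in TA, and 1529 between the muscles in the WT channel (2575 in the report). The t-test of the study's general methods, with adjustment, called 0 Nduf genes in either muscle. Over all genes it called 0 higher and 0 lower in gastrocnemius and 14 higher and 10 lower in TA.

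For these arrays the study's methods name SAM with an FDR cutoff of 0.05, while its results give the calls at an FDR under 0.1. At the cutoff of 0.05 SAM called 17 Nduf genes higher in gastrocnemius and 4 lower in TA. Over all genes it called 1253 higher and 450 lower in gastrocnemius and 623 higher and 325 lower in TA. At an FDR of 0.1 SAM called 24 Nduf genes higher in gastrocnemius, 8 lower in TA, and, of all genes, 2143 higher in gastrocnemius and 1118 lower in TA. One fit over all 8 arrays called 24 Nduf genes higher and 1, Ndufa7, lower in gastrocnemius, and 1858 of all genes higher and 1157 lower there. Without the filter on dim probes, 1 of all genes was called between the muscles on the log2 ratio.

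The median of all genes in gastrocnemius, 0.01975, was 0.03928 with Agilent's processed signals, 0.01358 with the mean of all probes, 0.003257 without the filter, 0.03156 with offset 0 and 0.02376 with quantiles alone. In TA, where it was 0.01897, it was 0.03573 in the authors' deposited log2 ratios and 0.03709 with loess alone.

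Leaving out 1 array at a time, Nduf genes called higher in gastrocnemius ranged from 0 (without array 3 or 4) to 13, and those called lower were 0 throughout. In TA, higher calls ranged from 0 (without array 1 or 2) to 3 (without array 4) and lower calls from 0 (without array 1) to 7. Over all genes, higher calls ranged from 0 to 1046 and lower calls from 0 to 723 in gastrocnemius, and from 53 to 1095 and 15 to 925 in TA. In the WT channel, lower Nduf calls ranged from 23 to 38 and all calls between muscles from 1543 to 2594. No Nduf gene was called between muscles on the log2 ratio without any array. The median of all genes in gastrocnemius ranged from 0.01866 to 0.02508.

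With the pair number as a replicate block, limma called 35 Nduf genes lower in WT gastrocnemius than in WT TA, beside 1858 of all genes called in either direction, and 0 between the muscles on the log2 ratio. The labels do not say whether pairs with 1 number are the same mice in both muscles. Deviations of same-numbered arrays from their muscle's mean had correlations of -0.14, 0.02, -0.36 and 0.09 across the probes kept in both muscles. Whether the mice are the same was not settled by these values. Dim signal was no limit for the Nduf genes, all of which were well above background on all 8 arrays.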
